A study of Mus musculus with 4 samples.

Results

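Thy1, Epcam, Cd9, Mcam, Cdh1, Adgra3 and Cd24a encode cell-surface proteins whose antibodies are used to enrich spermatogonia from mouse testis. They were taken as a list of symbols, with no threshold on their values, and each of the 7 matched 1 entry among 43998 in the deposited table. In cells of mutant testes, 5 of the 7 transcripts (Cd24a, Cdh1, Adgra3, Cd9 and Mcam) had lower values than in cells of control testes, by 1.32-fold to 2.13-fold. Epcam was almost equal, at 37.1 RPKM in mutant cells and 37.2 RPKM in control cells. Thy1, the antigen by which these cells had been selected, was 1.21-fold higher in mutant cells.

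The mutant group, labelled as a germ cell retinoic acid (RA) signaling mutant, and the control group each consist of 2 RNA-seq libraries. All 4 libraries came from testes of C57BL/6 mice on postnatal day 4, and in both groups cells were taken with magnetic beads carrying a CD90.2 (THY1) antibody. The sources used here do not name the altered gene, the driver that confines the alteration to germ cells or the number of animals. The deposited table gives RPKM, a read count adjusted for transcript length and sequencing depth, with 1 value per gene for both libraries of a genotype together, so no spread between replicates can be had and no SD, n of replicates or p-value is given.

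Spermatogonia are the mitotic germ cells of the testis, and the undifferentiated ones among them include the stem cells that sustain sperm production. RA starts their differentiation. The antigens in common use for sorting them mark overlapping but not identical populations. THY1 and CD24A are small proteins held in the membrane by a glycosylphosphatidylinositol (GPI) lipid anchor. THY1 and MCAM carry immunoglobulin domains, CDH1 (E-cadherin) and EPCAM join like cells to each other, CD9 is a tetraspanin that organises other membrane proteins, and ADGRA3 (GPR125) is an adhesion G protein-coupled receptor. Most of these proteins also occur on other cells: THY1 on fibroblasts and T cells, MCAM on endothelium and smooth muscle, CD9 and CD24A on several blood cells, and CDH1 and EPCAM on epithelia.

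RefSeq promoter windows on GRCm38.p6, from 250 bases before to 50 bases after the annotated start, were found for 4 of the 7 genes: Adgra3, Cd9, Mcam and Epcam. The upstream bases of 3 of them (Adgra3, Cd9 and Epcam) are shown, chosen with their differences known. Those of Mcam, which was also lower in mutant cells, spanned 61 bases by the rule below and are not shown. Whether any sequence bears on a difference was not tested. Each sequence runs 5′ to 3′ on the gene's own strand and ends before the first exon of a protein-coding gene in GENCODE M21, and capitals mark GC boxes (GGGCGG on either strand).
Adgra3, minus strand, chr5:50059007-50059246: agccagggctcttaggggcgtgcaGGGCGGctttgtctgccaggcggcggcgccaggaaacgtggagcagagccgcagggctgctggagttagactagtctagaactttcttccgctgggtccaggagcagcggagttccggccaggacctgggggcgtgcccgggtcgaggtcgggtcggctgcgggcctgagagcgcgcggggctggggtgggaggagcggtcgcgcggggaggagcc
Cd9, minus strand, chr6:125494792-125495010: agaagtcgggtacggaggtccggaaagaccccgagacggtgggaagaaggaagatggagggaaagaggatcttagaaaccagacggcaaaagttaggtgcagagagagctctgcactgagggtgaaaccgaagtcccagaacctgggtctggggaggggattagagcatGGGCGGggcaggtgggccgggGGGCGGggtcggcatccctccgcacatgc
Epcam, plus strand, chr17:87635729-87635978: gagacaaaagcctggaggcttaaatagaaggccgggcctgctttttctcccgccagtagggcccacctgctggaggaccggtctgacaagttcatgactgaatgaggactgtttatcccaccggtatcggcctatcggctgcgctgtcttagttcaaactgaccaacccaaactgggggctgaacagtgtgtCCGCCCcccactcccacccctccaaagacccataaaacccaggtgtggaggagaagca
Over the whole windows of 300 bases, with both strands read, GGGCGG occurred 1 time at Adgra3, 2 times at Cd9, 5 times at Mcam and 1 time at Epcam. It was present in 35.7% of all 32851 windows. None of the 5 at Mcam lay in its 61 bases before the first exon in GENCODE M21. AGGTCA is one form of the core sequence bound by many nuclear receptors, including those for RA. These exact letters occurred in none of the 4 windows and in 16.3% of all windows. Other forms of the core were not searched for, so sites for RA receptors are not shown to be absent. The E-box CAGGTG was present 1 time at Cd9, 1 time at Mcam and 2 times at Epcam, was not found at Adgra3, and occurred in 20.2% of all windows. Neither TATAAA (13.6% of all windows) nor CCAAT (37.4%) was found in the 4. CpG dinucleotides numbered 34 at Adgra3, 18 at Cd9, 29 at Mcam and 11 at Epcam, against a median of 7 per window. These are letter matches and were not tested as binding sites.

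The levels spanned a wide range. Mcam, which encodes the adhesion molecule CD146, was the highest member in both genotypes, with 101 RPKM in mutant cells and 134 RPKM in control cells. Cd9 followed at 72.4 RPKM in mutant cells and 117 RPKM in control cells, and Adgra3 at 62.4 RPKM in mutant cells and 104 RPKM in control cells. Epcam came next in both. Thy1 had 8.61 RPKM in mutant cells and 7.11 RPKM in control cells, Cd24a 5.57 RPKM in mutant cells and 11.8 RPKM in control cells, and Cdh1 3.16 RPKM in mutant cells and 6.10 RPKM in control cells. The order was thus the same except that Thy1 stood above Cd24a in mutant cells and below it in control cells. The transcript of the antigen used for selection was among the low members: Mcam exceeded Thy1 by 11.7 times in mutant cells and 18.8 times in control cells. Among 12184 protein-coding genes that reached 1 RPKM in at least 1 genotype, as all 7 members did, Thy1 lay at percentile 40.2 in mutant cells and 33.3 in control cells, whereas Mcam lay at 94.8 and Cd9 at 91.3 in mutant cells. A transcript level does not measure the protein on the surface.

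**Figure D1:**
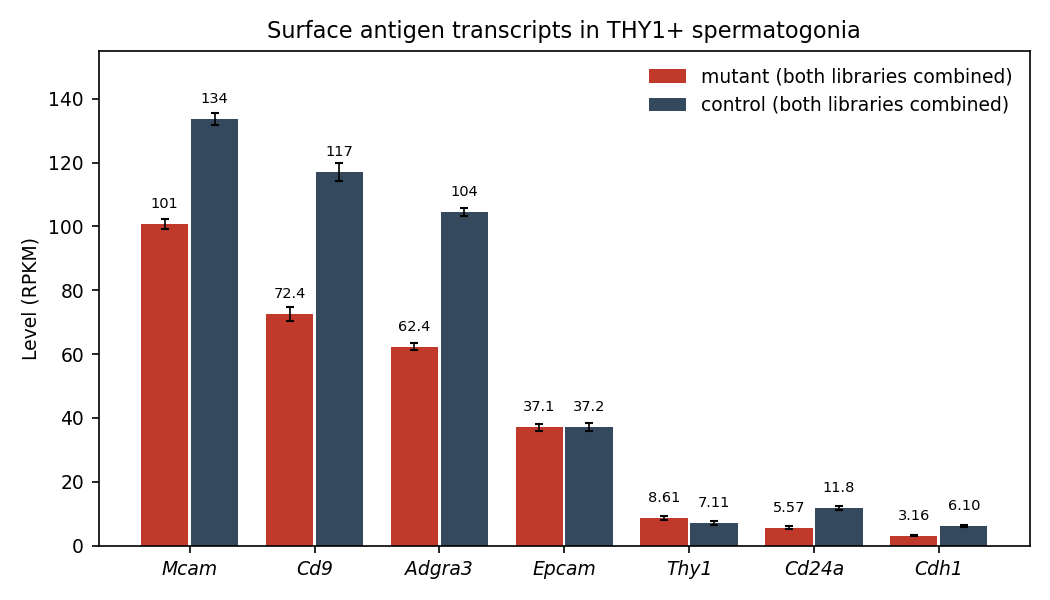
Level (RPKM, linear axis from 0) of each surface antigen transcript, with mutant bars left of control bars and 1 combined value per genotype. Error bars are 95% Poisson intervals of the estimated reads and cover counting error only. Mcam, Cd9 and Adgra3 stand between 62.4 and 134 RPKM, and Thy1, Cd24a and Cdh1 at 11.8 RPKM or less.

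Low values in the table step in whole reads, from which the depth was placed near 57.3 M reads for the mutant column and 56.0 M for the control column, if no other factor entered the values. With the longest annotated coding transcript as length, Adgra3 then rests on about 15259 mutant and 25048 control reads, and Thy1, Cdh1 and Cd24a on far fewer, from about 513 mutant reads for Cd24a to about 1446 control reads for Cdh1. The intervals given below for fold changes are exact 95% binomial intervals from these reads. They cover counting error only, not animals or libraries.

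Cd24a, whose protein is a small mucin-like molecule, differed most. It was 2.13-fold lower in mutant cells (counting interval 1.91 to 2.36), with a log2 difference of -0.97 on RPKM + 1, the scale used for all log2 differences here, which understates the difference of low genes. Of the 12184 protein-coding genes, 4.59% had a more negative log2 difference than Cd24a. Cdh1, the calcium-dependent adhesion molecule E-cadherin, was 1.93-fold lower in mutant cells (1.77 to 2.11; log2 difference -0.77), and 8.71% of protein-coding genes lay further down. Both genes were low in both genotypes, and their differences amounted to -6.27 RPKM and -2.94 RPKM.

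In absolute level, the largest differences among the 7 were those of Cd9 and Adgra3. Cd9 was 1.61-fold lower in mutant cells (counting interval 1.55 to 1.68; log2 difference -0.68), a difference of -44.5 RPKM. Adgra3 was 1.68-fold lower in mutant cells (1.64 to 1.71; log2 difference -0.74), a difference of -42.1 RPKM. Among protein-coding genes 11.1% lay below Cd9 and 9.64% below Adgra3. Mcam was 1.32-fold lower in mutant cells (1.30 to 1.35; log2 difference -0.40), and 24.5% of protein-coding genes had a more negative value.

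Epcam was near equal and Thy1 lay in the other direction. The mutant-to-control ratio of Epcam was 0.996, with a counting interval of 0.953 to 1.04, and its log2 difference of -0.01 lay slightly above 0 (0.02 to 0.16) when the values were quantile normalized, scaled to the sum over protein-coding genes or freed of their trend with transcript length and GC content. Thy1 was 1.21-fold higher in mutant cells (1.09 to 1.35; log2 difference 0.24), with 23.6% of protein-coding genes above it. Thy1 and Mcam lie 85.9 kb apart on chromosome 9 by their bounds in GENCODE M21, and differed in direction. Thy1 became -0.41 and Epcam -0.66 when values were shifted so that the median of the germ cell markers was 0, a shift that moved the median of all genes to -0.65. Relative to that median Thy1 was at 0.24 and Epcam at -0.01.

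**Figure D2:**
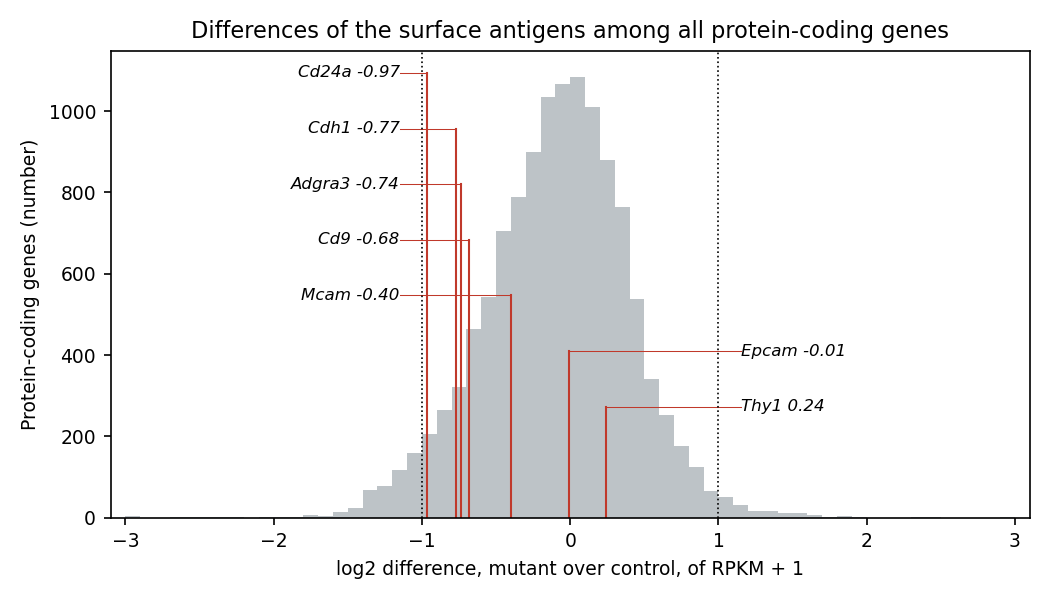
Number of protein-coding genes (vertical axis) by log2 difference, mutant over control, of RPKM + 1 (horizontal axis, bins of 0.1, values beyond the axis put in the end bins), with red lines at the 7 surface antigens whose heights carry no value. Dotted lines mark 2-fold. Cd24a at -0.97 lies just inside the lower line and Thy1 at 0.24 is the member furthest to the right.

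Of the 7 members, 6 had a log2 difference below 0 (Epcam by -0.01), as did 49.6% of all 16473 genes tested and 55.7% of the protein-coding ones. None of the 7 was past 2-fold on RPKM + 1, although Cd24a was 2.13-fold lower by RPKM alone. On RPKM + 1, 4.35% of all genes tested were 2-fold lower in mutant cells (716 genes) and 4.4% were 2-fold higher (724 genes). Counts past 2-fold in this report use RPKM + 1 unless another pseudocount is given. Low genes can therefore be 2-fold apart in RPKM and not be counted. Among protein-coding genes 4.06% were 2-fold lower and 1.31% were 2-fold higher. The median of the members was -0.68, against 0.00 for all genes tested and -0.06 for protein-coding genes. Scaling to the sum over protein-coding genes gave 470 lower and 1010 higher genes, moved the median of all genes to 0.15 and left the member median at -0.52. After the shift to the germ cell markers 4149 genes were 2-fold lower, 351 were 2-fold higher and 5 members were 2-fold lower. With a pseudocount of 0.1 or 0.5 in place of 1, Cd24a passed 2-fold, at -1.07 and -1.02. Of the 16473 genes tested, 1107 were then 2-fold lower and 1417 higher with 0.1, and 891 lower and 1002 higher with 0.5. The summed level of the 7 was 290.0 RPKM in mutant cells and 417 RPKM in control cells.

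**Figure D3:**
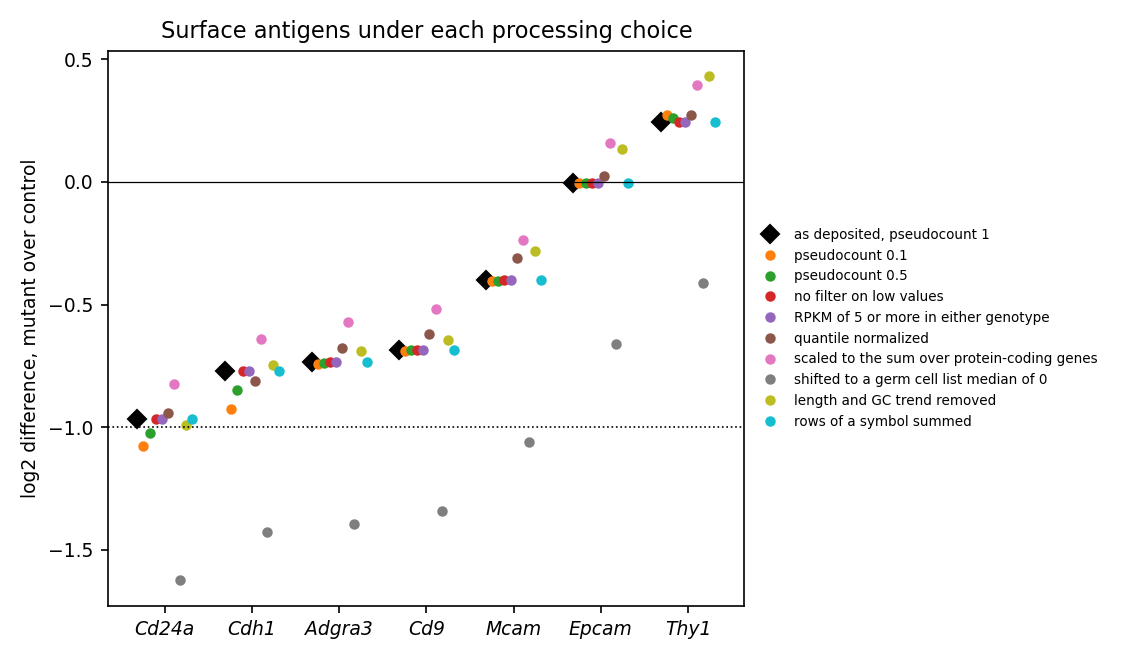
Log2 difference, mutant over control (vertical axis), of each surface antigen as deposited with a pseudocount of 1 (black diamonds) and under 9 other processing choices (coloured points). The dotted line marks 2-fold lower. Cd24a, Cdh1, Adgra3, Cd9 and Mcam lie below 0 under every choice shown, of which the filters, summing and pseudocounts could not change a sign. The shift to the germ cell markers gives the lowest point of each gene.

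Other surface proteins used to select spermatogonia were read from a list of 12, all of which reached 1 RPKM. In mutant cells 8 were below 0 and 4 above, 2 were 2-fold lower and 0 were 2-fold higher, with a median log2 difference of -0.43. Gfra1, the GDNF co-receptor, had 14.2 RPKM in mutant cells and 35.9 RPKM in control cells (log2 difference -1.28). Cd82, a tetraspanin, had 14.5 RPKM in mutant cells and 30.6 RPKM in control cells (-1.03). Itgb1, the integrin beta chain paired with the selection antigen ITGA6, was the highest of the list at 88.4 RPKM in mutant cells and 112 RPKM in control cells. All 9 proteins of counter-selection, which are used to remove differentiating or somatic cells, had log2 differences below 0 (median -0.68), and 1 was 2-fold lower. That gene was Kit, a receptor gained by differentiating spermatogonia, with 9.65 RPKM in mutant cells and 27.3 RPKM in control cells. Which cells its transcript came from was not tested. B2m, the light chain of MHC class I, was the highest at 240.3 RPKM in mutant cells and 412 RPKM in control cells.

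Relatives and partners of the members varied by family. Of 23 tetraspanins and their partners, 18 were below 0 and 4 were 2-fold lower, none was 2-fold higher, and the median was -0.45, against -0.68 for Cd9. The 4 were Cd63, a tetraspanin of lysosomes and exosomes, with 41.6 RPKM in mutant cells and 113 RPKM in control cells (-1.42), the leukocyte tetraspanin Cd53 with 39.8 RPKM in mutant cells and 88.9 RPKM in control cells, Cd82, and Tspan4 with 18.6 RPKM in mutant cells and 38.2 RPKM in control cells. Cd81, which encodes a tetraspanin that acts alongside CD9 in the egg, had 60.1 RPKM in mutant cells and 107 RPKM in control cells (-0.82). Cadherins and catenins measured on their own (7 of 9) had 4 members below 0, 3 above and none past 2-fold, with a median of -0.30. Among them the highest was Ctnna1, which links cadherins to actin, at 51.8 RPKM in mutant cells and 63.9 RPKM in control cells. Immunoglobulin family adhesion molecules measured on their own (13 of 14) split 8 below and 5 above 0 (median -0.40). None of them was past 2-fold on RPKM + 1, which can hide a 2-fold difference in RPKM of a low gene. The highest, the junction molecule F11r, had 68.3 RPKM in mutant cells and 53.6 RPKM in control cells.

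The remaining families lay nearer to 0. For EPCAM relatives and partners, 7 of 9 reached 1 RPKM, 4 were below 0 and 3 above, and the median was -0.06. Lef1, a transcription factor of Wnt signalling reported in human cells to work with the cleaved EPCAM tail, had 9.54 RPKM in mutant cells and 3.93 RPKM in control cells (log2 difference 1.10), while the adaptor Fhl2, which binds that tail, had 7.92 RPKM in mutant cells and 17.6 RPKM in control cells (-1.06). Adam17, a protease that sheds EPCAM, had 55.8 RPKM in mutant cells and 58.3 RPKM in control cells. Adhesion receptors of the ADGRA3 class measured on their own (13 of 14) numbered 8 at or above 1 RPKM, 4 on each side of 0, with a median of 0.11. The receptor left out shared an entry with another symbol, at 163 RPKM in mutant cells and 134 RPKM in control cells. Adgrl3 (latrophilin) had 18.2 RPKM in mutant cells and 5.07 RPKM in control cells (1.66), and the macrophage receptor Adgre1 had 46.5 RPKM in mutant cells and 120 RPKM in control cells (-1.35). The 22 genes of GPI anchor synthesis measured on their own, on which THY1 and CD24A depend for membrane attachment, had 13 members below 0, 9 above and none past 2-fold, with a median of -0.04. Dpm3, the highest of them by the mean of both genotypes, had 40.6 RPKM in mutant cells and 76.1 RPKM in control cells.

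**Figure D4:**
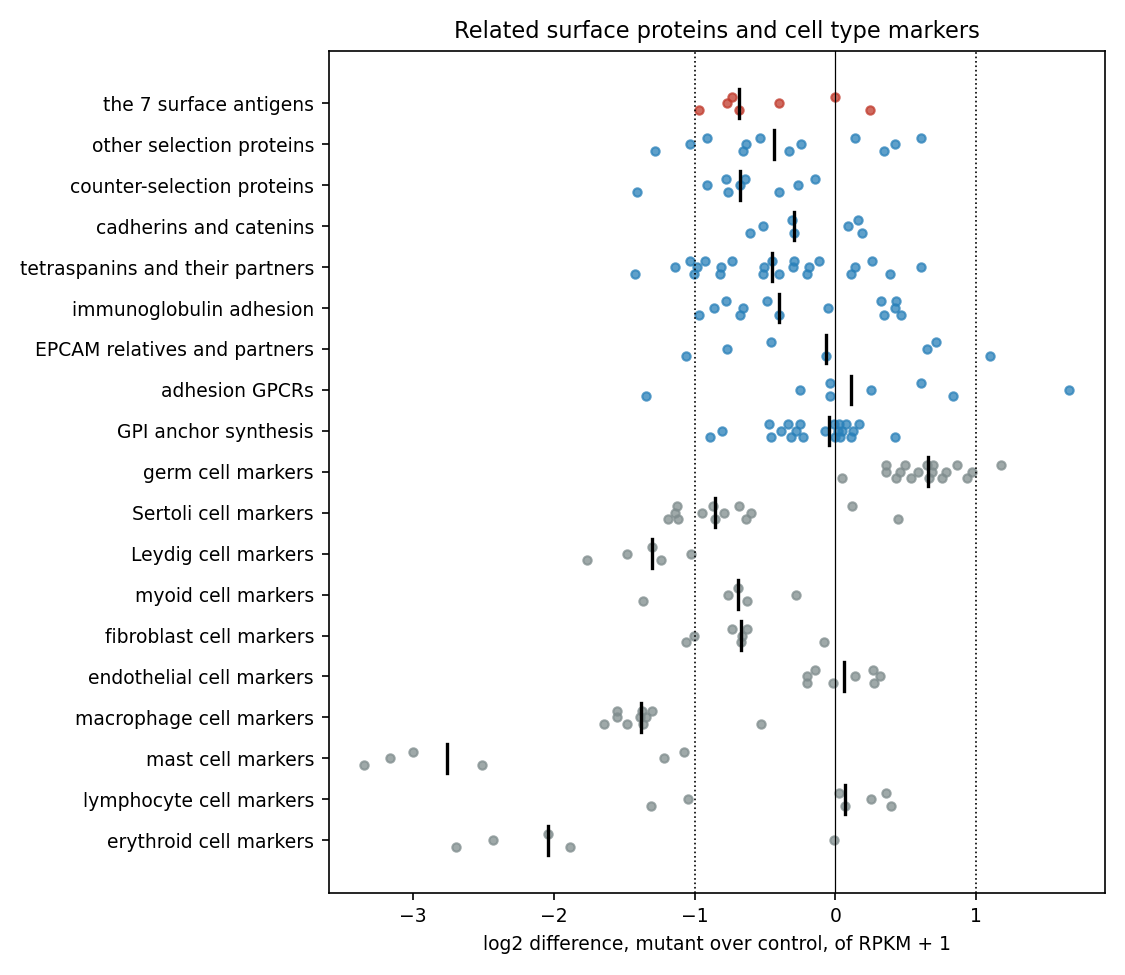
Log2 difference, mutant over control, of RPKM + 1 (horizontal axis) for each gene that reached 1 RPKM (points) in the 7 surface antigens (red), lists of related surface proteins (blue) and cell type marker lists (grey), with black ticks at the median of each list. Dotted lines mark 2-fold. The surface antigens have a median of -0.68, the germ cell markers 0.66 and the macrophage markers -1.38.

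Markers of cell types that carry some of these antigens also differed between the genotypes, and the counts here are of markers that reached 1 RPKM in an entry of their own. All 18 germ cell markers were above 0 (median 0.66, summed level 1501 RPKM in mutant cells and 1048 RPKM in control cells), and Dazl, a germ cell RNA-binding protein, was the highest at 353 RPKM in mutant cells and 274 RPKM in control cells. Sertoli markers were below 0 for 11 of 13, with a sum of 212 RPKM in mutant cells and 440 RPKM in control cells and Clu as the highest. All 10 macrophage markers were below 0, with a sum of 1456 RPKM in mutant cells and 4142 RPKM in control cells and Lyz2 as the highest. The same held for 7 of 7 fibroblast markers (114 RPKM in mutant cells and 202 RPKM in control cells, highest by the mean of both genotypes Col1a2), 5 of 5 Leydig markers (166 RPKM in mutant cells and 482 RPKM in control cells, highest Hsd3b1) and 5 of 5 myoid markers (37.5 RPKM in mutant cells and 87.5 RPKM in control cells, highest Acta2). Mast cell markers (6 of 6 below 0, highest Tpsb2) summed to 17.2 RPKM in mutant cells and 158 RPKM in control cells. Fcer1a was the only marker of any list at 0, in mutant cells. Its control value was 0.088 RPKM, far below 1 RPKM, so it was close to absent in both. Erythroid markers (5 of 5 below 0, highest Hbb-bs) summed to 76.5 RPKM in mutant cells and 416 RPKM in control cells.

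Endothelial markers, 4 of 8 below 0 with Cdh5 as the highest, summed to 29.1 RPKM in mutant cells and 28.9 RPKM in control cells. Lymphocyte markers, 2 of 7 below 0 and 5 above, had Cd3g as the highest by the mean of both genotypes. Their sum was 41.1 RPKM in mutant cells and 57.8 RPKM in control cells, but their median log2 difference was 0.07. The sum and most of the markers thus went in different directions. The part of any of these cell types in the values of the 7 surface antigens was not tested, and in bulk RNA fewer cells of a type and less RNA per cell cannot be told apart.

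Each member is annotated as protein-coding and holds a locus of its own except for low entries alongside. In GRCm38 the table places Thy1 on chromosome 9 from 44043384 to 44048579 and Mcam on chromosome 9 from 44123768 to 44142727, where the locus also holds Gm10687 at 1.20 RPKM in mutant cells and 1.67 RPKM in control cells. Cd9 is on chromosome 6 from 125460266 to 125499668, a locus shared with Gm28809 (1.31 RPKM in mutant cells and 1.87 RPKM in control cells) and Gm26728 (0.228 RPKM in mutant cells and 0.504 RPKM in control cells). Adgra3 lies on chromosome 5 from 49959956 to 50059006, Cdh1 on chromosome 8 from 106603351 to 106670246, Epcam on chromosome 17 from 87635979 to 87651106 and Cd24a on chromosome 10 from 43579169 to 43584262. The sources used here do not say whether strand was used in counting. GENCODE M21 lists between 1 and 4 coding transcripts per member, and a value per gene does not show which of them was present.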

How the data were processed

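RNA-seq libraries of bead-selected cells, 2 mutant and 2 control, were grouped by their titles. The deposited values are RPKM per the file headers, 1 column per genotype for both libraries, and the submitters' processing notes name TopHat2 2.0.11 and GRCm38. The sources used here do not give the counter, the annotation or how libraries were combined. Starts, which the table counts from 0, were raised by 1.

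Genes of 1 symbol that reached 1 RPKM in at least 1 genotype were compared (16473). Entries that pool several symbols (981) were left out, and a repeated symbol was represented by its highest entry. The log2 difference was log2((mutant RPKM + 1) / (control RPKM + 1)), with a 2-fold rule and no test, since columns are combined. Depth was fitted to genes with 1 GENCODE M21 transcript of at least 1000 nt: up to 10 reads, 95.3% of 900 mutant and 90.5% of 884 control values were whole to within 0.1, with 17.45 and 17.85 RPKM × nt per read. Scripts (Python 3.11.15, numpy 2.4.6, pandas 2.3.3, scipy 1.17.1) were tested on simulated data. Members and lists were chosen with earlier results of these data known. Besides members, the genes named were, by rule, the list genes past 2-fold (at most 4 per list) and the highest of each list by the mean of both genotypes. Of each marker list the highest alone was named, except Fcer1a, named after its value was seen. The alternatives were other pseudocounts, filters, scalings, removal of length and GC trends, and summing of repeated symbols.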

Additional observations from a re-analysis of the deposited data

How the results depend on the processing

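The 5 lower members (Cd24a, Cdh1, Adgra3, Cd9 and Mcam) stayed below 0 under all 9 alternatives, with ranges of -1.62 to -0.82, -1.43 to -0.64, -1.39 to -0.57, -1.34 to -0.52 and -1.06 to -0.24. Thy1 was above 0 in 8 of 9 and Epcam below 0 in 6 of 9. Most of these alternatives could not have raised a lower member above 0. The filters and the summing left the member values as they were, and a pseudocount cannot change a sign. The shift to the germ cell markers lowered every gene. Only quantile normalization, scaling to the sum over protein-coding genes and removal of length and GC trends could have done so. With a pseudocount of 0.1, 1 member was past 2-fold, with 1107 genes lower and 1417 higher in all. With 0.5 it was 1 member as well, with 891 genes lower and 1002 higher. Scaling to the sum over protein-coding genes gave a member median of -0.52 and 470 lower genes. The shift to the germ cell markers gave 5 members past 2-fold, a member median of -1.34, and 4149 lower and 351 higher genes, because it subtracts the same amount from every gene. No paired analysis was possible because the columns combine both libraries of a genotype, and for the same reason leaving out replicates was not run. Depth limits the low members most: the counting interval of the fold reached from 1.91 to 2.36 for Cd24a.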
